A study of Mus musculus with 6 samples.

Results

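Basal keratinocytes of intact female (XX) mice were compared with those of intact male (XY) mice, gene by gene, on the autosomes. A gene entered when at least 2 of the 4 libraries held 10 or more reads of it, which 14682 of the 45108 autosomal genes in the deposited table did. The cells came from the ear epidermis of CD1 mice, an outbred stock, and no allele, transgene or agent is named for either sex. Living cells were sorted by flow cytometry for surface integrin alpha 6 and against CD34, so that cells of the interfollicular basal layer were kept and cells of the hair follicle bulge were left out. Each group had 2 libraries, and each library held the RNA of 100000 sorted cells pooled from 2 littermates. The series' other 2 libraries, from castrated males, were left out of the comparison. The age of the mice is not given in the sources used here. Because each library is 1 pool from 1 litter, a p-value compares pools with pools, and the effects of sex and of litter cannot be told apart.

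The basal layer holds the dividing cells of the epidermis, attached through integrins and collagen XVII to the basement membrane. Cells that leave it stop dividing, replace the keratins Krt5 and Krt14 by Krt1 and Krt10, and later build the cornified envelope from small proline-rich proteins, loricrin and filaggrin. Keratinocytes also act as sentinels of the skin: under irritation they make calprotectin, antimicrobial proteins, interleukin 1 family members and chemokines.

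The libraries held between 8412487 and 9648154 reads, and 3 reads, the number a count of 0 still allows, were worth 0.304 to 0.379 CPM (reads relative to library size, after TMM scaling). Such limits cover counting error only. The Y chromosome genes Ddx3y, Eif2s3y, Kdm5d and Uty had 341 to 1937 reads in each male library and 0 to 2 in each female library, as labelled. The first principal component of the 4 libraries held 68.47% of the variance, with the males at -31.64 and -39.9 and the females at 18.13 and 53.41, so female 2 lay farther from the males than female 1. The second component held 21.15%, with the males far apart at 32.03 and -26.68 and the females at -6.639 and 1.292. The median absolute log2 difference between the libraries of a group was 0.212 in females and 0.186 in males over 11115 genes. Of these genes, 211 differed by at least 2-fold between the females and 359 between the males.

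The sorted identity was checked on marker genes. Krt5, a keratin of the basal layer, had 9928 and 11319 CPM in the males and 11056 and 13190.0 in the females. Krt14, its partner, had 13017 and 13243 CPM in the males and 13480.0 and 17170.0 in the females. The transcription factor gene Trp63 had 1726 and 1577 CPM in the males and 1653 and 1737 in the females. Itga6, the gene of the sorted integrin, had 370.0 and 364 CPM in the males and 315 and 364 in the females. None of these differed by the test (adjusted p from 0.693 to 0.919 among Krt5, Krt14, Itga6 and Trp63). Krt15, a keratin of resting basal cells, was lower in both females than in both males, 10474 and 14619 CPM in the males and 9149 and 6248 in the females, and missed the threshold (adjusted p = 0.242). Cd34 was near 0 in every library, 1.48 and 3.02 CPM in the males and 2.33 and 2.27 in the females. Other genes of the hair follicle and sebaceous gland list were present. Lgr5 had 31.5 and 27.1 CPM in the males and 20.1 and 15.4 in the females, and Sox9 41.4 and 33.5 against 41.6 and 28.3. The 20 markers of that list summed to 1587 and 1439 CPM in the males and 1751 and 2165 in the females. Krt17 and Scd1 were the highest of them in every library. Of other cell types, the pan-leukocyte gene Ptprc had 21 and 38 reads in the males and 25 and 29 in the females, and the fibroblast genes Lum and Twist2 had 0 reads in all 4 libraries. Other genes of the fibroblast list were present. Dcn had 197 and 64 reads in the males and 103 and 35 in the females, Col1a2 46 and 38 against 36 and 18, and Vim 111 and 47 against 83 and 99. The T cell receptor gene Trbc1 had 6 and 3 reads in the males and 19 and 23 in the females, Trac had 0 and 0 against 3 and 4, and Cd8a had 0 in all. Other T cell genes did not follow Trbc1 and Trac. Cd3e had 42 and 14 reads in the males and 12 and 19 in the females, and Cd3g 33 and 9 against 9 and 31. Cd247 had 41 and 36 against 38 and 24, and the receptor gene Trdc 39 and 12 against 31 and 24. The summed level of 11 T cell markers was 100.2 and 106 CPM in the males and 22.4 and 78.5 in the females, and that of 10 fibroblast markers 118 and 114 against 32.2 and 80.0. Both lists hold the surface protein gene Thy1, with 79.8 and 96 CPM in the males and 8.83 and 59.5 in the females. Without Thy1 the T cell sum was 20.4 and 10.1 CPM in the males and 13.6 and 19.1 in the females, and the fibroblast sum 38.5 and 17.7 against 23.3 and 20.6, so the sexes overlapped in both. Male 1 was the highest in blood and vessel genes. The 5 erythrocyte markers summed to 38.8 and 9.41 CPM in the males and 6.19 and 9.84 in the females. The endothelial gene Kdr had 30 and 4 reads against 2 and 2. The 7 melanocyte markers summed to 47.4 and 56.4 CPM against 33.1 and 41.4. The part of these cells in the result was not tested.

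At an adjusted p below 0.05, 244 of the 14682 autosomal genes passed the test (1.66%). Females were higher than males in 179 of them (1.22% of those tested) and lower in 65 (0.443%). The median log2 fold change over the 179 higher genes was 1.84 and ranged from 0.80 to 8.45; 168 of them changed by at least 2-fold and 75 by at least 4-fold. The 65 lower genes had a median of -1.77, with 59 changed by at least 2-fold and 25 by at least 4-fold. A mean of at least 100 CPM was reached by 33 of the higher and 15 of the lower genes. Of the 179, 22 passed the filter on low counts through the females alone, and of the 65, 10 through the males alone, so these had to differ. Among genes described below they are S100a8, S100a9, Sprr2b, Sprr2h, Il1f6, Wfdc12, Casp4, Gsdmc2 and Procr (higher) and Stag3, Gucy1a3, Hrh2 and Zfp870 (lower), and their calls are given as a description. Together the 179 higher genes made up 5812 and 5275 CPM in the males and 14292 and 22955 CPM in the females, and the 65 lower genes 5922 and 5750 CPM against 2459 and 1928. In sorted bulk samples of this kind, fewer cells of one state and less RNA per cell cannot be told apart.

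**Figure D1:**
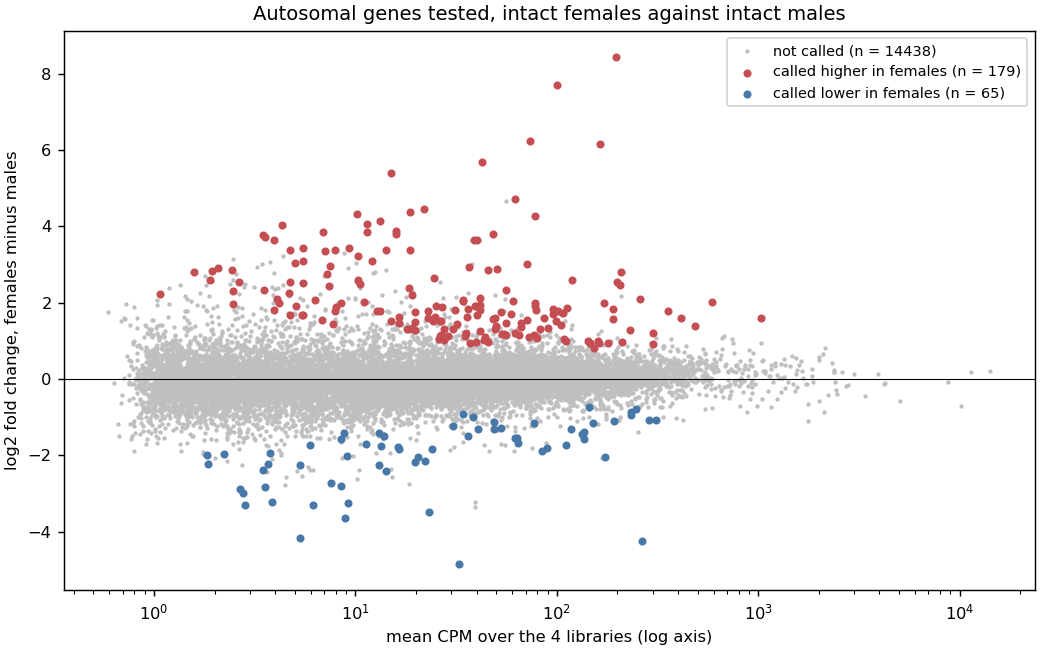
Log2 fold change of each autosomal gene tested (vertical axis, females minus males) against its mean CPM over the 4 libraries (horizontal log axis). The 179 genes called higher (red) and 65 called lower (blue) span low and high levels, and the 14438 genes not called (grey) centre on 0.

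The number of calls rested strongly on single libraries. Without female 2, limma called 0 genes, its smallest adjusted p was 0.0535, and 1047 genes had an unadjusted p below 0.05; without female 1 it called 31, without male 1 it called 877, and without male 2 it called 808. With the castrated males in the same fit to estimate the spread, 912 genes (6.06%) passed, of which females were higher in 577 and lower in 335. In all 244 genes both females lay on the same side of both males, so their sign could not turn when a library was left out. Over all autosomal genes the median log2 fold change was -0.01 and 48.8% of genes had a positive one. The females lay entirely above the males for 3923 genes (26.7%) and entirely below for 4004 (27.3%).

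Both female libraries moved the same way but by unequal amounts. Among the 179 higher genes the median log2 change from the male mean was 1.51 in female 1 and 2.11 in female 2, and 173 of them were farther from the males in female 2. Among the 65 lower genes the medians were -1.63 and -1.95, and 53 were farther in female 2. Female 2 also had the fewest reads and the lowest scaling factor for library size, 0.942 against 1.02 in each of the other 3 libraries; with totals alone in place of these factors 140 genes were called higher and 52 lower. The part of depth in the result was not tested.

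**Figure D2:**
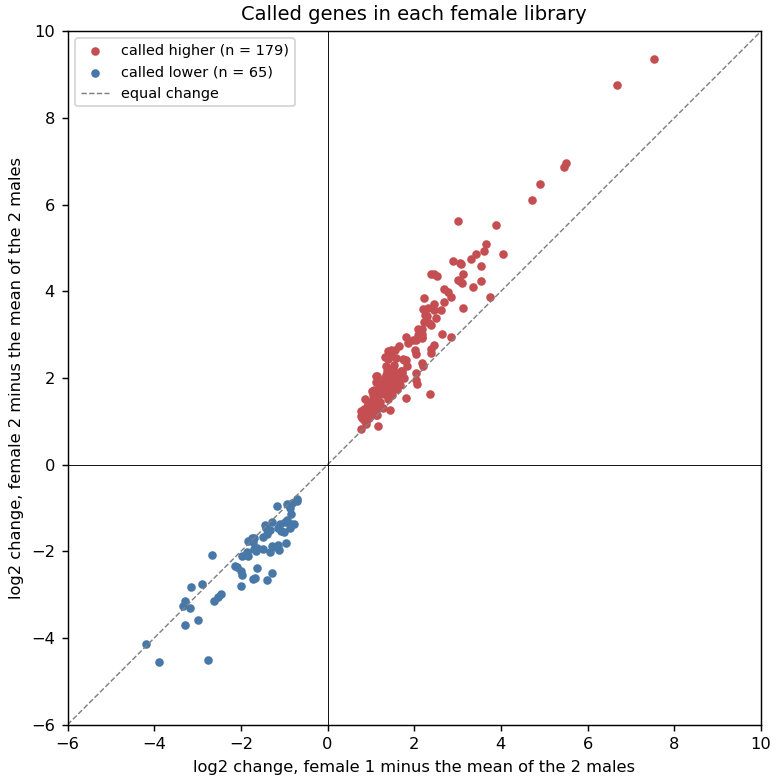
Log2 change from the mean of the 2 males in female 1 (horizontal axis) and female 2 (vertical axis) for each called gene; the dashed line marks equal change. All 179 higher genes lie in the upper right and all 65 lower genes in the lower left, most of them beyond the line on the side of female 2.

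**Figure D3:**
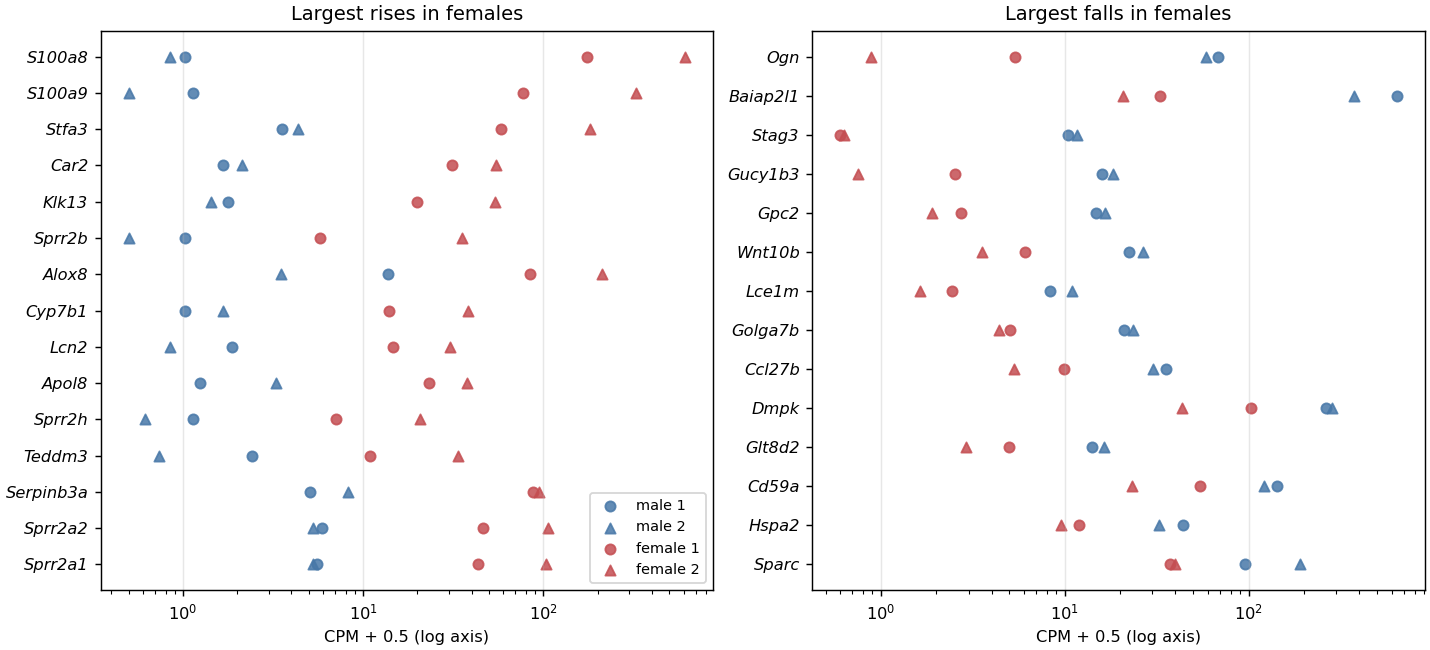
CPM + 0.5 in each library (log axis) of the 15 named genes with the largest rise and 14 of the 15 with the largest fall in females; circles are replicate 1 and triangles replicate 2, males in blue and females in red. In every row the 2 females lie on one side of the 2 males.

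Of 42 genes of G2 and mitosis tested, 21 rose in females and 0 fell (background 1.22%), and in all 42 both females lay above both males, which 26.7% of autosomal genes did. The list's median log2 fold change was 1.13, with 0.97 in female 1 and 1.35 in female 2, beside -0.01 over all autosomal genes. With all 6 libraries in the fit 37 of the 42 were called, and without female 2 none was.

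The cyclin and kinase genes that drive entry into mitosis were among them. Ccnb2, which encodes cyclin B2, had 46.1 and 36.5 CPM in the males and 126 and 175 in the females (log2 fold change 1.84 ± 0.20, adjusted p = 0.00962). Values with ± here and below are log2 fold changes with their standard errors. Ccnb1, its close relative, had 59.1 and 43.1 CPM in the males and 122 and 173 in the females. Plk1, a kinase of spindle assembly and mitotic entry, had 16.3 and 15.8 CPM in the males and 47.2 and 80.3 in the females (1.91 ± 0.26, adjusted p = 0.0196). In these 3 genes the lower female library was still at least 2-fold above the higher male library, and female 2 was the highest of the 4. Aurka, the kinase of the spindle poles, rose from 15.2 and 12.1 CPM in the males to 36.6 and 43.2 CPM in the females, a narrower span between the female pools.

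Genes of the kinetochore, the checkpoint and the spindle were also among those called. Cdc20, the activator of the anaphase-promoting complex, had 92.6 and 71.6 CPM in the males and 236 and 361 in the females (1.84 ± 0.23, adjusted p = 0.0147). Kif2c, a kinesin that shortens microtubules at kinetochores, had 20.1 and 16.3 CPM in the males and 57.5 and 71.7 in the females and the smallest adjusted p of the list (0.00890). Cenpa, the histone H3 variant of the centromere, had 54.7 and 36.4 CPM in the males and 127 and 186 in the females. Ect2, which positions the cleavage furrow, had 39.4 and 32.1 CPM in the males and 90.6 and 124 in the females. Hmmr, a spindle-associated protein gene, had 23.6 and 24.9 CPM in the males and 53.8 and 63.4 in the females. The females were above the males in each, with female 2 higher than female 1 throughout.

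The list members that did not pass also had higher values in females. Kif20a, a kinesin of cytokinesis, had 109 and 82.7 CPM in the males and 144 and 182 in the females (adjusted p = 0.0883). Mki67, which encodes Ki-67, found in dividing cells, had 72.4 and 49.3 CPM in the males and 101 and 117 in the females (adjusted p = 0.0814). Top2a, which untangles DNA, had 42.3 and 47.1 CPM in the males and 73.1 and 93.3 in the females (adjusted p = 0.0548). The smallest differences were those of Bub3, a checkpoint gene, 112 and 99.1 CPM in the males and 117 and 126 in the females, and of the spindle midzone gene Prc1, 47.2 and 40.4 CPM in the males and 53.3 and 52.3 in the females. Mki67 and Top2a were chosen here for what they mark after their values were seen.

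**Figure D4:**
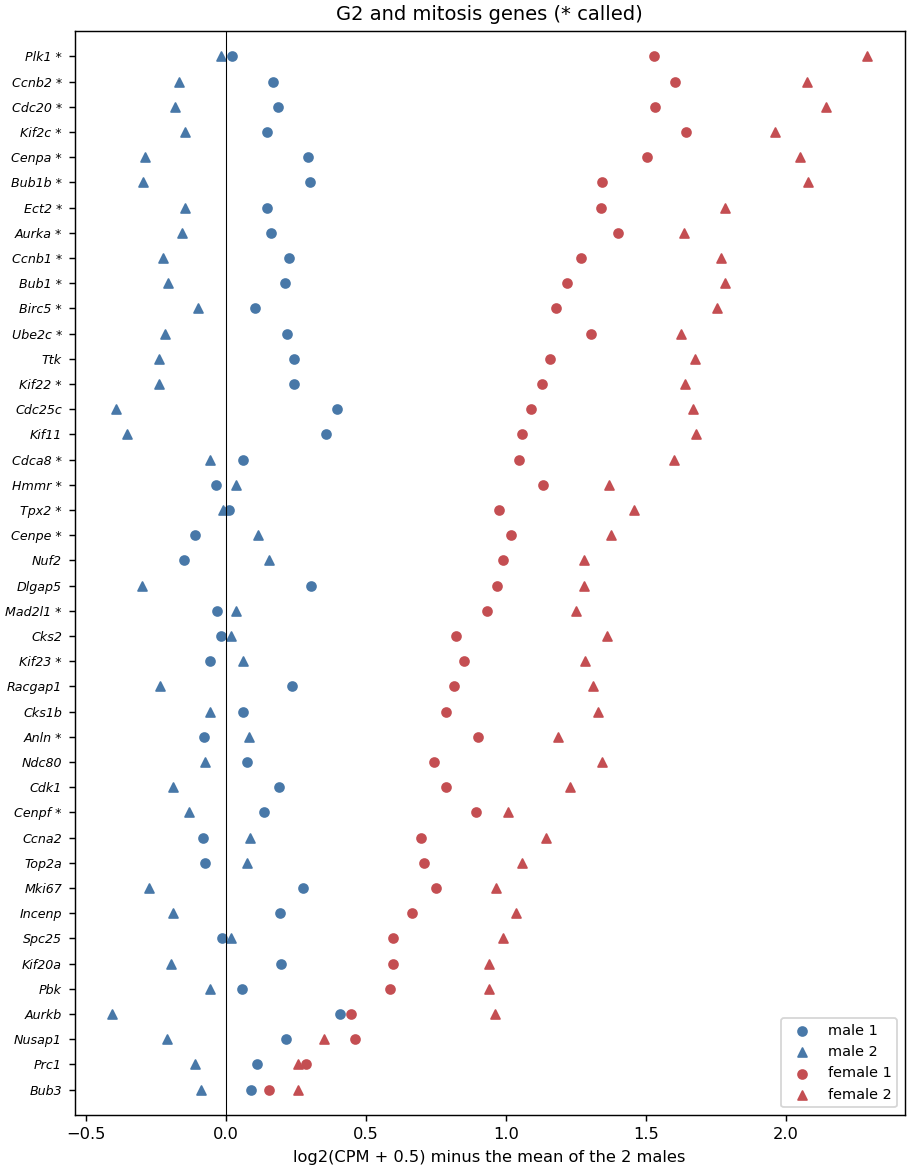
Log2(CPM + 0.5) of the 42 tested G2 and mitosis genes in each library, as the difference from the mean of the 2 males; asterisks mark the 21 called genes. In every row both female libraries lie to the right of both male libraries, and female 2 is to the right of female 1 in most.

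The start regions of these genes are shown because the genes moved together and many of them carry the same short sequences. CCAAT is the box bound by NF-Y, and TTTGAA is the core of the CHR, an element known from the promoters of G2 and mitosis genes. Windows from 250 bases before to 50 after the start, taken from RefSeq on GRCm38.p6, were matched by symbol for 34 of the 42 genes. Both motifs were sought on both strands, and a match of one can overlap the other only by end letters. CCAAT was in 27 of the 34 windows (79.4%), against 38.3% of the 9642 tested autosomal genes with a window and 37.8% of all 27025 windows. TTTGAA was in 26 of the 34 (76.5%), against 11.9% and 18.1%. Both were in 23 (67.6%), against 4.98% and 7.01%. Among the 20 called list members with a window the counts were 16, 15 and 13. A match describes letters in a window and shows no binding.

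The windows of Ccnb2 (chr9:70421505-70421804, minus strand), Cdc20 (chr4:118437294-118437593, minus strand) and Plk1 (chr7:122159185-122159484, plus strand) hold both motifs, and that of Kif2c (chr4:117178723-117179022, minus strand) holds TTTGAA alone, on the opposite strand. Each is printed 5′ to 3′ on the gene's strand, with matches in capitals. The first CCAAT of Ccnb2 begins 87 bases before the start and its 3 boxes are spaced evenly, at 87, 54 and 21 bases; the window was chosen after it was seen to hold them.
Ccnb2: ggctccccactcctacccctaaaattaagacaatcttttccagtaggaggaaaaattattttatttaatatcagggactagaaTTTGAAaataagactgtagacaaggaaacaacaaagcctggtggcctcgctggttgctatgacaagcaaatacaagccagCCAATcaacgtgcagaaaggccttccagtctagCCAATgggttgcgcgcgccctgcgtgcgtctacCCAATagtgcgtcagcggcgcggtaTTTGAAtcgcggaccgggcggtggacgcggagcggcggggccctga
Cdc20: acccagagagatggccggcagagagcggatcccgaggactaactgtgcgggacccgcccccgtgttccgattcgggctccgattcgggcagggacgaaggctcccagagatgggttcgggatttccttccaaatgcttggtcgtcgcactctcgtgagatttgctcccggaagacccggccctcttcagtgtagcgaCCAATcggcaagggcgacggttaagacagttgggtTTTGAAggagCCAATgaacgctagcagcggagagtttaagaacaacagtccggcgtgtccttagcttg
Plk1: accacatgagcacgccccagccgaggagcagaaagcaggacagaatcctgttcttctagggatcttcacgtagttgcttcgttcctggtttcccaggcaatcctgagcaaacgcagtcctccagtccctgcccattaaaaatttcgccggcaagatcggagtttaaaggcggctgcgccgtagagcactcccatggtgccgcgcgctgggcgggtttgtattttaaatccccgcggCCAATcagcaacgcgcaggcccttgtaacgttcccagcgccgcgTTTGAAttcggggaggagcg
Kif2c: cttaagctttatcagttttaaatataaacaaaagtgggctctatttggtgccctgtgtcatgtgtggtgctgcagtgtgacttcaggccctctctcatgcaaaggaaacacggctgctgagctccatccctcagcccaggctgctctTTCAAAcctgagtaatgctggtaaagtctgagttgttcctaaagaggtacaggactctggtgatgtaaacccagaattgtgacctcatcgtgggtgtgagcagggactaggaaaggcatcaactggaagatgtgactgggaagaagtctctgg

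Genes of S phase and of the G1 checkpoint differed less. Of 44 S phase and replication genes only Orc1, a subunit of the origin recognition complex, was called, with 6.97 and 8.25 CPM in the males and 19.3 and 31.2 in the females (log2 fold change 1.63 ± 0.28, adjusted p = 0.0393). Both females lay above both males in 29 of the 44 (background 26.7%), and the median was 0.48. Rrm1, the large subunit of ribonucleotide reductase, had 148 and 164 CPM in the males and 232 and 345 in the females and missed the threshold (adjusted p = 0.0757), as did the helicase subunit gene Mcm6, 172 and 236 CPM in the males and 249 and 324 in the females. Of 27 genes of D cyclins, CDK inhibitors and p53 targets limma called 0, with 5 at an unadjusted p below 0.05. Their best-expressed member Ccnd2, a D cyclin, had 2441 and 2304 CPM in the males and 1473 and 845 in the females, lower in both females (adjusted p = 0.0819). H2afz, a variant histone gene, rose from 272 and 257 CPM in the males to 553 and 868 CPM in the females (adjusted p = 0.0297).

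Some genes of early differentiation rose beside the mitotic ones, while the basal keratins Krt5, Krt14 and Krt15 did not pass the test. Of 22 suprabasal keratin and spinous genes 5 were called higher (background 1.22%) and 0 lower. Ptgs1, given below with the prostaglandin genes, is among the 5. Krt1, the first keratin of the spinous layer, had 28.6 and 40.5 CPM in the males and 105 and 140.5 in the females (1.82 ± 0.22, adjusted p = 0.0138). Ehf and Elf3 are ETS-family transcription factors of epithelia: Ehf had 52.5 and 47.7 CPM in the males and 266 and 472 in the females (2.81 ± 0.25, adjusted p = 0.00482). Elf3 had 2.11 and 1.86 CPM in the males and 6.39 and 8.58 in the females. Ovol1, a repressor of progenitor genes, had 44.1 and 47.6 CPM in the males and 88.5 and 113 in the females. Zfp750, a factor of terminal differentiation outside this list, had 33.6 and 31.5 CPM in the males and 59.9 and 93.2 in the females (adjusted p = 0.0491). In each of these genes both females stood above both males. Krt10 was tested too and was not called. Over the 22 genes of the list both females lay above both males in 12 (background 26.7%) and below in 4 (background 27.3%), and the median was 0.39. Krt2, also suprabasal and abundant in ear skin, was flat at 8975 and 9028 CPM in the males and 8527 and 8472 in the females, and Krtdap, a gene of the spinous layer, was higher in both females but missed the threshold, 539 and 435 CPM in the males and 719 and 958 in the females (adjusted p = 0.0891).

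Of 37 cornified envelope genes tested, 4 were called higher (background 1.22%), all of them small proline-rich protein genes of chromosome 3, and 1 lower (background 0.443%). Both females lay above both males in 25 (background 26.7%) and below in 4, and the median log2 fold change was 0.76. Sprr2h had 0.633 and 0.116 CPM in the males and 6.59 and 20.2 in the females. Sprr2b had 0.528 and 0 CPM in the males and 5.28 and 34.8 in the females. Both were close to 0 in males and passed the filter on low counts through the females alone. Sprr2a1 had 5.07 and 4.76 CPM in the males and 43.1 and 103 in the females. Sprr2a2 had 5.38 and 4.76 CPM in the males and 45.5 and 105 in the females; these copies are near identical and overlap, so the split of reads between them is uncertain. Lce1m, a late envelope gene of the same chromosome, went the other way, 7.81 and 10.5 CPM in the males and 1.93 and 1.14 in the females (-2.26 ± 0.34, adjusted p = 0.0281). The crosslinking enzyme gene Tgm3 had 208 and 328 CPM in the males and 342 and 405 in the females and was not called (adjusted p = 0.254). The involucrin, loricrin and filaggrin genes Ivl, Lor and Flg were tested too, and none was called.

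Some of the widest gaps between the groups were those of protease inhibitors and of the kallikrein gene Klk13. Serpinb3a, a clade B serpin that blocks cysteine and serine proteases, had 4.54 and 7.78 CPM in the males and 86.9 and 93.7 in the females, with the females close together and more than 10-fold above the males (3.81 ± 0.26, adjusted p = 0.00126). Serpinb3d, its neighbour, rose less, 2.01 and 2.67 CPM in the males and 9.33 and 7.70 in the females, and Serpinb3b was not called, 298 and 493 CPM in the males and 678 and 655 in the females. Members of this family resemble each other, so reads may be divided between them. The stefin genes BC100530, BC117090 and Stfa3 lie in 1 cluster on chromosome 16 and share that uncertainty. BC100530 had 3.38 and 3.72 CPM in the males and 177 and 473 in the females. BC117090 had 1.16 and 0.697 CPM in the males and 41.6 and 126 in the females. Stfa3 had 3.06 and 3.83 CPM in the males and 58 and 182 in the females, and in all of them female 2 was the highest library. Gm15845, an antisense transcript over BC100530, had 1.16 and 1.28 CPM in the males and 77.2 and 215 in the females, and the strand setting of the counting is not given in the sources used here. Klk13, a kallikrein-related peptidase, had 1.27 and 0.929 CPM in the males and 19.5 and 53.3 in the females (4.37 ± 0.45). Ctsl, a lysosomal cathepsin that stefins inhibit, was lower in females, 296 and 303 CPM in the males and 170.1 and 161 in the females (-0.85 ± 0.13, adjusted p = 0.0297).

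S100a8 and S100a9, the genes of calprotectin, had the largest fitted log2 fold changes among the called genes. S100a8 had 0.528 and 0.348 CPM in the males and 173 and 612 in the females. S100a9, the other subunit, had 0.633 and 0 CPM in the males and 76.1 and 326 in the females. The males held 5 and 3 reads of S100a8 and 6 and 0 of S100a9, so both genes passed the filter on low counts through the females alone. Female 2 stood well above female 1. Of other S100 genes, S100a6 had 468 and 432 CPM in the males and 468 and 583 in the females. S100a16 had 557 and 351 CPM in the males and 418 and 573 in the females. Neutrophils also make calprotectin in large amounts. Of their other markers, Ly6g had 0 and 0 reads in the males and 1 and 1 in the females, Elane 0 in all libraries, Csf3r 0 to 1, and the myeloid gene Lyz2 0, 1, 2 and 6. The chemokine receptor gene Cxcr2 was also higher in both females, with 9 and 6 reads in the males and 33 and 92 in the females. It was not called, and it too passed the filter on low counts through the females alone. The 14 macrophage and neutrophil markers summed to 24.8 and 28.6 CPM in the males and 278 and 982 in the females. Without S100a8 and S100a9 the other 12 summed to 23.7 and 28.2 CPM against 28.7 and 44.4, and the part of such cells in the result was not tested.

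Some genes of secreted defence proteins and cytokines also rose. Of 12 antimicrobial and iron-sequestering genes tested, 3 were called higher (background 1.22%) and 0 lower. Lcn2, the iron-sequestering lipocalin, had 1.37 and 0.348 CPM in the males and 14.2 and 29.7 in the females. Chil1, a chitinase-like protein gene, had 11.7 and 8.25 CPM in the males and 48.4 and 113 in the females, and Wfdc12, an elafin-type inhibitor, 0 reads in both males and 2.03 and 4.29 CPM in the females. With 54 reads in the females, that is at least 18.3-fold higher than 3 reads over both males would allow. Wfdc12 passed the filter on low counts through the females alone, and this limit covers counting error only. Of 16 interleukin 1 family genes 3 rose (background 1.22%). Il1f9, one of the IL-36 cytokines, had 12.2 and 24.4 CPM in the males and 64.3 and 124 in the females. Il1f6, another, rose from 2 reads over both males to 132 over both females (ratio 67.1, 95% exact interval from 18.2 to 559.8). It also passed the filter through the females alone, and the interval covers counting error only, not the spread between libraries. Irak3, a brake on the receptor pathway, had 17.2 and 20.1 CPM in the males and 53.1 and 70.1 in the females. Of 12 genes of chemokines and their receptors 2 were called higher (background 1.22%) and 0 lower. Both females lay above both males in 6 (background 26.7%) and below in 4 (background 27.3%). Cxcl1, a neutrophil attractant, had 1.69 and 1.28 CPM in the males and 12.2 and 26 in the females. Ccl20, which draws CCR6-bearing cells, had 3.91 and 1.98 CPM in the males and 16.8 and 19.3 in the females.

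Of 31 genes of cytokine signalling and NF-kB, 3 rose (background 1.22%) and 1 fell (background 0.443%). Socs3, the feedback inhibitor of STAT3, had 15.4 and 16.5 CPM in the males and 53.8 and 70.7 in the females (1.92 ± 0.19, adjusted p = 0.00790). Nfkbiz, an inducible NF-kB cofactor, had 23.6 and 32.9 CPM in the males and 64.7 and 77 in the females. Il4ra, the shared receptor chain of interleukins 4 and 13, had 23.3 and 22.8 CPM in the males and 50.8 and 96.9 in the females. Stat3 was itself not called, 496 and 419.8 CPM in the males and 542 and 705 in the females (adjusted p = 0.227). Tslp, an epithelial cytokine of allergic inflammation, fell from 33.5 and 18.1 CPM in the males to 7.61 and 6.18 CPM in the females (-1.77 ± 0.31, adjusted p = 0.0428). Il33, another alarmin of this kind, was also lower in both females, 273 and 274 CPM in the males and 166 and 112 in the females, but just missed the threshold (adjusted p = 0.0547). Of 13 stress and companion keratin genes limma called 0, with 4 at an unadjusted p below 0.05. Both females lay above both males in 3 (background 26.7%) and below in 3 (background 27.3%), and the median was 0.01. Of 17 interferon-stimulated genes 1 was called higher and 0 lower. Both females lay above in 6 and below in 6, and the median was -0.09.

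Of 12 genes of antigen presentation by MHC class II tested, 5 rose in females (background 1.22%) and 0 fell, and the median was 1.48. Ciita, the master activator of the class II genes, had 1.90 and 1.86 CPM in the males and 8.83 and 17 in the females (2.43 ± 0.36, adjusted p = 0.0264). H2-Aa, the alpha chain gene, had 60.1 and 70.9 CPM in the males and 181 and 375 in the females. H2-Ab1, the beta chain gene, had 85.4 and 98.3 CPM in the males and 271 and 576 in the females. The invariant chain gene Cd74 had 206 and 232 CPM in the males and 598 and 1333 in the females. H2-DMa, which loads peptides, had 9.92 and 9.53 CPM in the males and 26.6 and 54.8 in the females, while its partner H2-DMb1 missed the threshold, 10.5 and 7.20 CPM in the males and 16.2 and 30.3 in the females. In all of these female 1 was above both males and female 2 was above female 1. Rfxank, a general factor of class II promoters, was flat at 56.4 and 54.7 CPM in the males and 52.7 and 53.1 in the females. The Langerhans cell gene Cd207 did not follow them, with 62 and 72 reads in the males and 52 and 54 in the females, whereas Epcam, an adhesion gene of the same marker list, had 101 and 57 reads in the males and 131 and 120 in the females. The 10 Langerhans and dendritic cell markers summed to 23.2 and 19.2 CPM in the males and 22.5 and 25.1 in the females, and without Epcam to 12.6 and 12.5 against 9.24 and 9.97. Their part in the result was not tested. Of 23 MHC class I genes limma called 0, with 5 at an unadjusted p below 0.05, and H2-D1 had 1537 and 1665 CPM in the males and 2002 and 2814 in the females (adjusted p = 0.191).

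The start of H2-Aa (chr17:34287774-34288073, minus strand) is printed because class II promoters are known for an inverted CCAAT, the Y box. The window holds 1 such match, on the opposite strand and 48 bases before the start, shown in capitals as it reads on the gene's strand. CCAAT on either strand was in 6 of the 7 class II genes with a window, against the 38.3% of tested autosomal genes given above, and in 1 of the 2 called class II genes with a window.
H2-Aa: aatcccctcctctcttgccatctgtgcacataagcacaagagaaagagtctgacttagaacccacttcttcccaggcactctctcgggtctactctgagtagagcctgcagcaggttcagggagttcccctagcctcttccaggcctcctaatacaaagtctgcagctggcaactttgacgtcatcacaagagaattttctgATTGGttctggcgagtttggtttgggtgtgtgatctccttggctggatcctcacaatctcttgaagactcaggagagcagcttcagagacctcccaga

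Of 16 prostaglandin and eicosanoid genes tested, 5 rose (background 1.22%) and 0 fell. Ptgs1 and Ptgs2 encode the cyclooxygenases: Ptgs1 had 36.5 and 58.8 CPM in the males and 132 and 219.5 in the females. Ptgs2 had 3.06 and 3.14 CPM in the males and 14.3 and 13.5 in the females, with the female pools nearly equal. Alox8, a lipoxygenase of the epidermis, had 13.2 and 3.02 CPM in the males and 83.6 and 212 in the females (4.27 ± 0.63, adjusted p = 0.0264), with unequal males as well. Hpgd, which inactivates prostaglandins, had 11.9 and 22.9 CPM in the males and 55.6 and 75.2 in the females. Akr1c18, whose enzyme inactivates progesterone, had 28.6 and 18.2 CPM in the males and 83.1 and 113 in the females. Cyp7b1, a hydroxylase of oxysterols and steroids, had 0.528 and 1.16 CPM in the males and 13.5 and 37.6 in the females (4.14 ± 0.49). Those were the only 2 called of 22 steroid receptor and steroid enzyme genes (background 1.66% in either direction), whose median was -0.10. The prolactin receptor gene Prlr had 126 and 153 CPM in the males and 142 and 113 in the females and was not called (adjusted p = 0.723).

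Many metabolic genes had higher values in females, and few passed the test. Of 62 nuclear genes of oxidative phosphorylation 4 were called higher (background 1.22%) and 0 lower, 59 had both females above both males (background 26.7%), and the median was 0.45. Cyc1, a heme subunit of complex III, had 107 and 112 CPM in the males and 189 and 239 in the females. Uqcr10, of the same complex, had 103 and 95 CPM in the males and 169 and 217 in the females; Uqcrq and Atp5k were the others called. Atp5b, the catalytic subunit of ATP synthase, had 1143 and 1177 CPM in the males and 1524 and 2070.0 in the females (adjusted p = 0.144). Of 32 glycolysis and hypoxia genes only Slc16a1, a lactate transporter, passed, with 95.3 and 92.7 CPM in the males and 225 and 346 in the females (1.57 ± 0.21, adjusted p = 0.0187), although 23 had no overlap and lay above the males (median 0.77). The lactate dehydrogenase gene Ldha had 731 and 649 CPM in the males and 1018 and 1745 in the females (adjusted p = 0.102).

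Carriers, carbonic anhydrases and detoxifying enzymes were also among the called genes. Car2, a cytosolic carbonic anhydrase, had 1.16 and 1.63 CPM in the males and 30.7 and 53.8 in the females (4.45 ± 0.33, adjusted p = 0.00177). Car12, a membrane form, had 188 and 128 CPM in the males and 429.6 and 676 in the females. Fabp5, the epidermal fatty acid binding protein, had 14.8 and 13.9 CPM in the males and 81.1 and 176 in the females (3.01 ± 0.33, adjusted p = 0.00890). Slc7a1, an importer of arginine and lysine, had 47.7 and 51.4 CPM in the males and 140.4 and 192 in the females, whereas the serine synthesis gene Phgdh from the same list had 445 and 446 CPM in the males and 540.2 and 656 in the females and was not called. Adh7, a retinol-oxidising dehydrogenase, had 182 and 176 CPM in the males and 355 and 487 in the females. Aldh3a1, an aldehyde dehydrogenase, had 142 and 106 CPM in the males and 221 and 252 in the females. Of 33 NRF2 and antioxidant genes limma called 0, with 8 at an unadjusted p below 0.05. Of the mitochondrial carriers, Slc25a51, the importer of NAD, was lower in females, 199 and 189.8 CPM in the males and 72.8 and 69.9 in the females (-1.44 ± 0.14, adjusted p = 0.00596), as was Slc25a38, a glycine carrier of heme synthesis, 43.2 and 42.9 CPM in the males and 19.7 and 16.3 in the females.

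Genes of protein synthesis and breakdown had slightly higher values in females. Of 36 proteasome subunit genes limma called 0, with 12 at an unadjusted p below 0.05, and all 36 had a positive fold change and 30 had no overlap (median 0.35). Of 33 ribosome biogenesis genes it called 0, with 16 at an unadjusted p below 0.05 and both females above the males in 27 (median 0.41), and of cytosolic ribosomal protein genes both females were above in 49 of 57 (median 0.28). At an unadjusted p below 0.05 there were 2951 autosomal genes in all (20.1%). Over all autosomal genes 48.8% had a positive fold change, and 26.7% had both females above both males. Psmd2, of the proteasome base, had 407 and 410.3 CPM in the males and 469 and 618 in the females. Rplp0, of the ribosomal stalk, had 2465 and 2431 CPM in the males and 2639 and 2922 in the females. Rpsa was the ribosomal gene that fell, 434 and 408 CPM in the males and 186 and 217 in the females (-1.07 ± 0.15, adjusted p = 0.0208); its processed copy Rpsa-ps10 rose, 19.3 and 6.62 CPM in the males and 84.6 and 91.1 in the females, and since copies share sequence, reads of either may have been counted for the other.

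Transcript length moved with these differences. Across the 14682 genes the log2 fold change had a Spearman rho of -0.138 with exonic length, -0.0989 for female 1 alone and -0.151 for female 2 alone; genes are not independent. The 2940 shortest genes had a median log2 fold change of 0.09 and the 2937 longest one of -0.09. With a length trend taken out of each library, the lists kept medians of 1.18 (mitosis), 0.41 (oxidative phosphorylation), 0.32 (proteasome), 0.26 (ribosomal proteins) and -0.46 (basement membrane), and 248 genes were called, 234 of them among the 244. This alternative was chosen after the data were seen.

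Matrix genes moved in both directions. Postn and Tnc, matricellular proteins of remodelling tissue, rose: Postn had 588 and 428 CPM in the males and 1273 and 1844 in the females (1.61 ± 0.23, adjusted p = 0.0264). Tnc had 99.2 and 35.5 CPM in the males and 248 and 442 in the females, with unequal males. Sparc, another matricellular gene, fell, 94.5 and 189 CPM in the males and 37 and 39.4 in the females (-1.79 ± 0.29, adjusted p = 0.0346), as did the small proteoglycan gene Ogn, 67.2 and 57.9 CPM in the males and 4.87 and 0.379 in the females, and the glypican gene Gpc2, 14.4 and 16.1 CPM in the males and 2.23 and 1.39 in the females. Gpc2 overlaps the called gene Stag3, so reads of either may have been counted for the other. Timp3, an inhibitor of metalloproteinases, had 379 and 390.2 CPM in the males and 225 and 149 in the females (-1.07 ± 0.20, adjusted p = 0.0497). Fibroblasts express several of these genes, and the summed fibroblast markers given above were also lower in females, and without Thy1 the sexes overlapped; their part in the result was not tested. The fibroblast genes Col1a1 and Col3a1 had 0 to 7 reads in each library. Dcn, a small proteoglycan gene of fibroblasts, had 197 and 64 reads in the males and 103 and 35 in the females, and the sexes overlapped.

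Genes of basal cell anchorage had lower values in females, and 1 passed. Of 24 basement membrane and collagen genes 17 had both females below both males (background 27.3%), 1 was called lower (background 0.443%) and 0 higher. The median was -0.55, with -0.34 in female 1 and -0.77 in female 2. Col16a1, a fibril-associated collagen, was the gene called, 231 and 291 CPM in the males and 144 and 100.5 in the females (-1.11 ± 0.21, adjusted p = 0.0476). Col17a1, the collagen of hemidesmosomes, had 5801 and 6295 CPM in the males and 4686 and 3533 in the females (adjusted p = 0.219). Lamb3, a chain of laminin 332, had 1346 and 1118 CPM in the males and 882 and 835 in the females (adjusted p = 0.148), and neither passed the threshold. Of 12 desmosome genes limma called 0, with 4 at an unadjusted p below 0.05. Among the junction genes Gjb2, the connexin 26 gene, rose from 10.2 and 3.37 CPM in the males to 28.8 and 56.2 CPM in the females (2.66 ± 0.49, adjusted p = 0.0476).

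Most clock genes also had lower values in females. Of 26 tested, 2 were called lower (background 0.443%) and 1 higher (background 1.22%), 18 had both females below both males (background 27.3%), and the median was -0.65. Usp2, a rhythmic deubiquitinase, was called lower and had 66.3 and 50.3 CPM in the males and 25.9 and 20.7 in the females. Arntl2, a paralogue of Bmal1, was called higher and had 4.33 and 6.39 CPM in the males and 14.9 and 25.5 in the females. Rora, a nuclear receptor that activates Bmal1, had 477 and 426 CPM in the males and 350.3 and 243 in the females and was not called. Nr1d1, a repressor of Bmal1, had 354 and 356 CPM in the males and 327 and 216 in the females and was not called either. The hour at which the mice of each pool were killed is not given in the sources used here.

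In the signalling lists few genes were called. Both females lay below both males in 16 of 36 Wnt, 14 of 28 YAP and TEAD, 14 of 36 TGF-beta and BMP, 12 of 34 semaphorin, plexin and ephrin and 7 of 18 Notch genes (background 27.3%), and the list medians ran from -0.13 to -0.23. Other lists went the other way. Both females lay above both males in 7 of 15 EGF receptor and ligand genes and 11 of 23 immediate early genes (background 26.7%). Their medians were 0.27 and 0.38. In the Wnt list the ligand gene Wnt10b fell, 22 and 26 CPM in the males and 5.58 and 3.03 in the females (-2.40 ± 0.31, adjusted p = 0.0173), and the receptor gene Fzd10 rose, 11.4 and 15 CPM in the males and 34.2 and 64.9 in the females. Sostdc1, a secreted antagonist of Wnt and BMP, rose from 126 and 144 CPM in the males to 303 and 355 CPM in the females (1.28 ± 0.15, adjusted p = 0.0135). Ptpn14, a phosphatase that restrains YAP, fell, 215 and 201 CPM in the males and 115 and 75.4 in the females. Sox7, a transcription factor, had 17.4 and 12.8 CPM in the males and 53.9 and 81.7 in the females (2.12 ± 0.25, adjusted p = 0.0135). The binding protein gene Igfbp2 had 8.45 and 12.9 CPM in the males and 29 and 25.7 in the females. Egr1 was the immediate early gene called, 39.7 and 26 CPM in the males and 70.4 and 76.9 in the females, and Junb missed the threshold, 404 and 428 CPM in the males and 645 and 698 in the females (adjusted p = 0.0591). Limma called 0 of 18 Notch, 36 TGF-beta and BMP and 34 semaphorin, plexin and ephrin genes, with 4, 9 and 7 at an unadjusted p below 0.05.

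Other genes fell in females by a wide margin. Baiap2l1, which shapes actin-rich membranes, had 639 and 374 CPM in the males and 32.4 and 20.2 in the females (-4.23 ± 0.29, adjusted p = 0.00130). Dmpk, the myotonic dystrophy kinase gene, had 263 and 285 CPM in the males and 103 and 43 in the females. Cd59a, an inhibitor of complement lysis, had 142 and 121 CPM in the males and 53.7 and 22.7 in the females. Clu, a secreted chaperone, had 242 and 168 CPM in the males and 83.2 and 54.3 in the females. Hspa2, a heat shock protein of the Hsp70 family, had 43.5 and 32.1 CPM in the males and 11.5 and 9.09 in the females. It was the only called member of 33 chaperone and heat shock genes, and most of that list went the other way. Both females lay above both males in 20 (background 26.7%) and below in 4 (background 27.3%), and the median was 0.34. Gucy1b3 and Gucy1a3, subunits of the receptor for nitric oxide, both fell, Gucy1b3 from 15.5 and 17.9 CPM to 2.03 and 0.252 CPM and Gucy1a3 from 5.28 and 4.88 CPM to 0.406 and 0.126 CPM. Among 326 Zfp genes 1 was called higher and 3 lower (background 1.66% in either direction). In 161 both females lay below both males (background 27.3%), and the median was -0.24. Zfp870 had 6.12 and 8.71 CPM in the males and 0.304 and 0.379 in the females. Zfp652 had 325 and 286 CPM in the males and 168 and 152 in the females.

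Called genes lay near each other in 9 places, taken as runs of at least 3 with gaps of at most 500 kb. Genes that were not called could lie between them. On chromosome 5, 3 of the 4 genes tested in 1 span were called, Baiap2l1, Bri3 and Gm15708, all lower. They occupy overlapping positions, so their reads may not be separable. Another stretch of chromosome 5 held the called genes Stag3, Gpc2, Gm43720, Agfg2 and Gm43493 among 27 genes tested. Gm43493 rose and the others fell. Stag3, Gpc2 and Gm43720 overlap one another, so their reads may not be separable. Stag3, a meiotic cohesin, went from 190 reads over both males to 2 over both females (ratio 93.4, 95% exact interval from 25.5 to 777.2). It passed the filter on low counts through the males alone, and the interval covers counting error only. Chromosome 15 held Cacnb3, Fkbp11 and Wnt10b, all lower, 3 of 5 genes tested in the span. In the remaining runs all called genes were higher. The stefin cluster had 4 called of 4 genes tested in its span and the Sprr2 cluster 4 of 9. The class II genes of chromosome 17 made up 3 of 12, as did Bub1b with Knstrn and Knl1 on chromosome 2. Groups around Krt1 and Sh3bgrl2 had 3 of 10 and 3 of 6. By chromosome the called share ran from 0.825% (chromosome 12) to 2.94% (chromosome 3).

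The lists as a whole covered 108 of the 244 called genes. In the remaining lists described here limma called 0 of 62 mitochondrial ribosomal protein, 33 translation initiation factor, 30 homologous recombination and Fanconi, 45 chromatin regulator, 19 imprinted, 8 Hox and 5 Skint genes, and 0 of 30 of fatty acid and sterol synthesis. At an unadjusted p below 0.05 there were 15, 7, 8, 5, 2, 1, 1 and 6 of them, in that order.

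**Figure D5:**
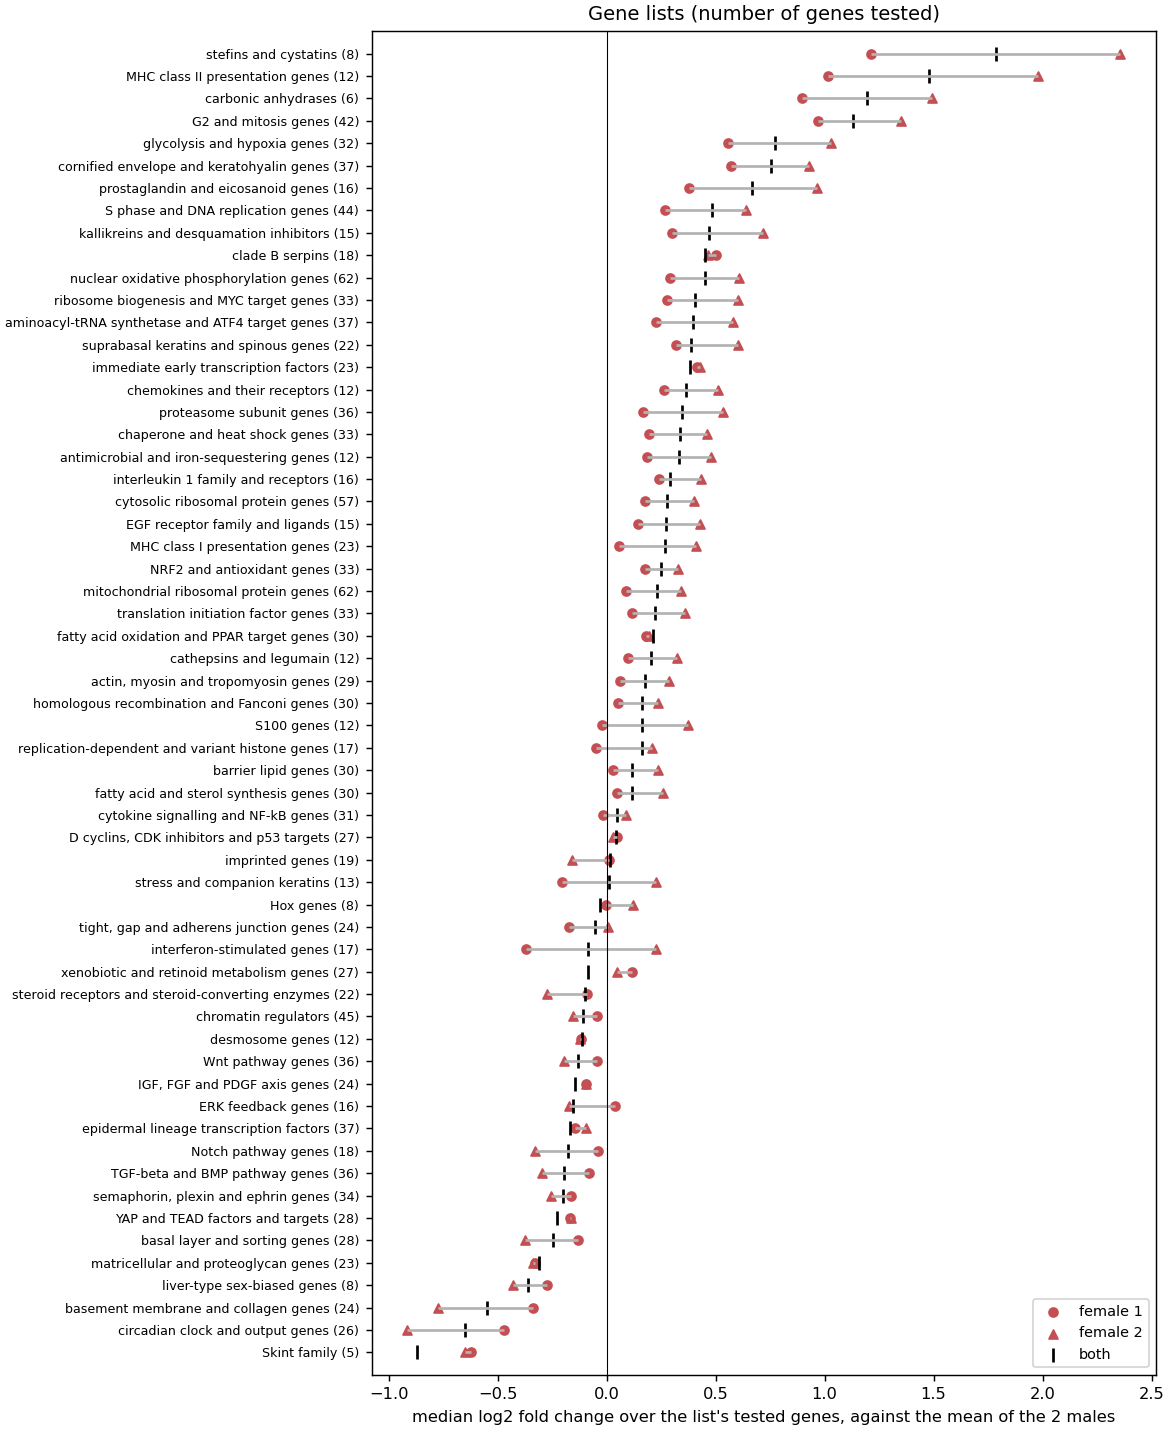
Median log2 fold change of each gene list against the mean of the 2 males, in female 1 (circles), female 2 (triangles) and both (bars); the number of genes tested is in parentheses. The stefin, class II, carbonic anhydrase and mitosis lists lie farthest to the right, the clock and basement membrane lists among those farthest to the left, and female 2 lies beyond female 1 in most rows.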

How the data were processed

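Bulk RNA-seq of sorted basal keratinocytes was compared between 2 intact female and 2 intact male libraries. Reads were aligned and counted by the authors, and STAR 2.7.5a and HTSeq 0.11.1 are named, beside FastQC and Picard, per the submitters' processing notes. Annotation, strand setting and scaling were not given in the sources used here. As deposited the values are scores: judging from the values, read counts scaled to totals of 19999024 to 19999531 and rounded. All values in each library were whole multiples of 1 step within the 0.5 error of rounding (100%), and dividing by the step gave the reads used here.

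Reads were scaled with TMM library factors to CPM (reads relative to library size). The test was limma 3.58.1 (R 4.3.3) with an intensity trend on log2(CPM + 0.5), with 2 residual degrees of freedom and 5.56 prior ones, on genes with at least 10 reads in 2 libraries (15214, all chromosomes). P-values are two-sided and Benjamini-Hochberg adjusted over those genes, and a call is an adjusted p below 0.05. Fold changes understate low genes, and ± is the standard error on the log2 scale. The edgeR and DESeq2 tests were not run: the deposited columns are not counts, and the recovered reads were tested with limma only. The procedure was tested on simulated data. Chromosomes and exonic lengths came from GENCODE M21 (GRCm38) by gene ID (49412 of 49671 matched), and promoters from RefSeq (GRCm38.p6, the lowest start coordinate where a gene had several). The library with the number 3 in its column name was taken as male 2 from its title.

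Named genes are the 15 largest changes and the 12 highest means in each direction among called genes with at least 5 CPM, no overlap and an established symbol, members of gene lists, and fixed basal markers; 1 of them is not reported here. Members, lists and tests, the fit on 4 libraries included, were chosen with earlier results of these data known. Alternatives were other scaling, filters, pseudocounts, models, a replicate block, all 6 libraries and each library left out.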

Additional observations from a re-analysis of the deposited data

How the results depend on the processing

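Against 179 genes higher and 65 lower in females, leaving out 1 library in turn gave from 0 to 588 higher and from 0 to 298 lower, with the lowest values without female 2. Without that library 1047 genes had an unadjusted p below 0.05, and without female 1 the fit called 21 and 10; in these fits the lone library is assumed to vary like the other group. Counts also moved with no filter on low values (366 and 153), with limma voom (76 and 37), with no intensity trend (13 and 12) and with all 6 libraries in 1 fit (577 and 335). They stayed within 1.5 times with size factors by median of ratios, totals alone, a minimum of 50 reads, a pseudocount of 1 or 0.1, and a length trend removed. The count of genes without overlap ran from 6258 to 10786 over the filters and scalings tried. Called genes that could be tested again kept their sign in all 16 alternatives; their groups do not overlap, so leaving out a library could not turn it.

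The replicate numbers are not known to pair the libraries. Deviations of same-numbered libraries correlated at -0.154, and a replicate block gave 279 higher and 125 lower. With the crossed pairing as a block, chosen after the data were seen, 567 and 302 were called. With 2 libraries a group the spread of each gene rests on 2 residual degrees of freedom, so counts of calls carry wide uncertainty. Depth limits genes under about 3 reads a library, 0.304 to 0.379 CPM. The edgeR and DESeq2 tests were not run.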

Other observations

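Of the 244 called genes, 136 were in no gene list. The genes named in this paragraph were picked from them after their values were seen, so they carry no test beyond their own. Further genes of cell division were among them. Pttg1, the securin gene, had 50.4 and 34 CPM in the males and 106 and 154 in the females. Tacc3, a spindle gene, had 58.1 and 43.7 CPM in the males and 107 and 151 in the females. Cdca3, a regulator of mitotic entry, had 41.1 and 31.7 CPM in the males and 74.1 and 119 in the females. Knl1, the kinetochore scaffold, had 18.6 and 17.2 CPM in the males and 39.2 and 39.9 in the females. Aspm, a spindle pole gene, had 17 and 15.5 CPM in the males and 36.3 and 36.4 in the females. The females were above the males in all of these.

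A few genes of cell death, inflammation and coagulation were also higher in females. Gsdmc, of the gasdermin family, had 1.79 and 1.39 CPM in the males and 10.3 and 43.3 in the females. Gsdmc2 had 0.633 and 0.465 CPM in the males and 4.36 and 14.6 in the females, and the sequences of both are similar enough that reads may be shared. Casp4, an inflammatory caspase, had 0.422 and 1.05 CPM in the males and 6.80 and 13.8 in the females. Zc3h12a, which encodes the mRNA-degrading regnase-1, had 38.2 and 25.9 CPM in the males and 135 and 278 in the females (adjusted p = 0.0166). Thbd, which encodes the anticoagulant receptor thrombomodulin, had 4.86 and 11.7 CPM in the males and 45 and 84.4 in the females. Procr, which encodes the protein C receptor, had 0.633 and 0.116 CPM in the males and 4.87 and 13.4 in the females. In each of these female 2 was the highest library, female 1 came next and the males were lowest. Among the 179 higher genes 173 were farther from the males in female 2, so this order was not particular to these.

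Among the genes that fell, Cyp2b10, a cytochrome P450 gene known from the liver, had 176 and 165 CPM in the males and 60.4 and 43.5 in the females. Cnr1, a cannabinoid receptor gene, had 4.75 and 7.90 CPM in the males and 1.32 and 1.14 in the females. Hrh2, a histamine receptor gene, had 7.92 and 4.41 CPM in the males and 0.507 and 1.01 in the females. Ccl27b and Gm13306, copies of a skin chemokine gene, both fell, Ccl27b with 35.3 and 29.7 CPM in the males and 9.44 and 4.80 in the females and Gm13306 with 39.9 and 32.6 CPM in the males and 11.1 and 5.43 in the females, and the counting may have divided their reads. Skint1, a gene of epidermal immune selection, was not called and differed mainly between the males, 5.07 and 97.2 CPM in the males and 8.42 and 14.4 in the females, with Skint11 alike, 0.317 and 21.1 CPM in the males and 0.913 and 1.77 in the females.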
